A study of Mus musculus with 6106 samples.

Results

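The proteasome genes of splenic regulatory T cells (Tregs) were followed over 3 bins of an Nr4a1-GFP reporter. Members were the rows whose symbol starts with Psma, Psmb, Psmc, Psmd, Psme or Psmg followed by a digit, without the immunoproteasome genes Psmb8, Psmb9 and Psmb10. Of 46 such rows, 43 reached the minimum of 20 unique molecular identifiers (UMIs) in cells with at least 500 UMIs, out of 10113 genes that reached it and 23725 rows in all. The 3 members that were not measured are Psmc3ip with 19 UMIs, Psma8 with 1 and Psme2b with 0. Just inside the minimum lies Psmb11 with 33 UMIs, and the next member, Psmg3, had 38, 57 and 61 in the bins. The measured members are 15 genes of the core particle, 17 of the regulatory particle, 7 assembly chaperones and 4 activators, so 11 of the 43 are not subunits of the standard particle. Psmb11, counted here with the core, encodes a catalytic subunit known from the thymic epithelium, and Psmc3ip encodes a recombination factor and not a proteasome protein.

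The proteasome is the chamber in which ubiquitin-tagged proteins of the cytosol and nucleus are cut into peptides. Its core particle stacks rings of alpha subunits, which form the gate, and rings of beta subunits, of which Psmb5, Psmb6 and Psmb7 carry the cutting sites. The regulatory particle caps the core, and its base of ATPases unfolds the substrate while its lid removes the ubiquitin. Interferon replaces the cutting subunits by those of the immunoproteasome, which lymphocytes also hold at rest, and activated T cells depend on proteasome activity for NF-kappa-B signalling and for the turnover of cell cycle proteins.

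The cells came from spleens of male B6 mice, 10 months old, that carried Nr4a1-Gfp and Foxp3-Ires-Thy1.1. In them GFP reports Nr4a1, an early gene of T cell receptor (TCR) signalling, and Thy1.1 marks Foxp3-expressing cells. Living cells (DAPI-) that were TCRb+, CD4+ and FoxP3-Thy1.1+ were sorted after mechanical dissociation into GFPlow (0 to 20 percent of the GFP distribution), GFPmed (40 to 60 percent) and GFPhigh (80 to 100 percent). All 3 groups share sex, age, strain and sort markers, and per the labels they differ in GFP. Each bin is 1 inDrops library, a droplet method that counts transcripts by UMIs primed at the poly(A) tail, and the labels do not state how many mice stand behind a library.

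With 1 library per bin there are 0 replicates, cells of a library are not replicates, and no test between bins was made. Brackets hold exact 95% intervals for counting error only. They leave out any variation between mice or libraries, and so does the comparison with the background of all genes. The values used came from 5435 cells, of which GFPmed gave 1537, GFPhigh 1775 and GFPlow the rest, and the bins held 2435870 (GFPlow), 2512277 (GFPmed) and 2270376 (GFPhigh) UMIs. GFPmed cells were the deepest, at a mean of 1634.5 UMIs against 1147.4 in GFPlow and 1279.1 in GFPhigh. Between 29 and 35 cell barcodes recurred in each pair of libraries. The Treg markers Foxp3, Cd4, Cd3e, Cd3d, Lck, Il2ra, Ctla4 and Ikzf2 were all found in every bin, with a summed level of 3411 UPM in the GFPlow library, 3240 UPM in GFPmed and 4019 UPM in GFPhigh. In the same order of bins Foxp3 (389.6, 317.2 and 359 UPM) and Cd4 (557.5, 384.1 and 464.7 UPM) were highest in GFPlow. The other 6 markers were higher in GFPhigh than in GFPlow. UPM, the unit of all levels here, is the number of UMIs per 1000000 in that bin. Where 3 levels follow each other they belong to GFPlow, GFPmed and GFPhigh in this order. Ratios are log2 ratios of the levels, for single genes after adding 0.5 UMI to each count, and the ratio between the outer bins is that of GFPhigh to GFPlow.

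Summed over all 43 members, proteasome transcripts stood at 4308 UPM [4226, 4391] in GFPlow, 4294 UPM [4213, 4376] in GFPmed and 4718 UPM [4629, 4808] in GFPhigh. GFPhigh was thus 9.52% above GFPlow and 9.86% above GFPmed, while the lower bins were level in this scaling. Between the outer bins the log2 ratio of the sums was 0.13 [0.09, 0.17], and it was 0.14 [0.10, 0.17] from GFPmed to GFPhigh and -0.00 [-0.04, 0.03] from GFPlow to GFPmed. With ribosomal protein genes left out of the total the steps were alike, at 0.0695 from GFPlow to GFPmed and 0.0725 from GFPmed to GFPhigh, and the latter was 0.0580 with TMM scaling (a factor per library from edgeR) and 0.0792 after each cell was thinned to 500 UMIs. These ratios share libraries in pairs and are not independent of each other. Nearly every cell contributed, since 96.2% of the GFPlow cells, 98.2% of the GFPmed cells and 97.0% of the GFPhigh cells held a member UMI, and no cell held more than 0.797% of the member UMIs of its bin.

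The difference was shallow and spread over many genes. Of the 43 members 34 had a ratio above 1 between the outer bins, which is 79.1% against 54.9% of all genes tested, and the median log2 ratio was 0.19 for the members and 0.05 for all genes. With each cell thinned to 500 UMIs these medians lay closer together, at 0.0688 and 0.0442. Only 13 members were at least 1.2-fold higher in GFPhigh, a share of 30.2% that lies close to the 29.3% of all genes and is no result about the members. At least 1.2-fold lower were 2 members, Psmd7 and Psmg2, against 21.6% of all genes. Among all genes with at least 100 UMIs, which 42 members reach, 24.1% were higher and 18.6% lower. The ordering over the bins, counted after the data were seen, gave 32 members with their highest level in GFPhigh (74.4%, against 40.9% of all genes), 3 in GFPmed (against 25.8%) and 8 in GFPlow (against 33.3%). In 18 members the level went up from GFPlow through GFPmed to GFPhigh (41.9%, against 21% of all genes), and 2 members had the opposite order (against 15.7%). GFPhigh lay at least 1.2-fold above both other bins in 6 members, Psmb7, Psmc1, Psmc5, Psmd3, Psmd6 and Psmd11, a share of 13.95% against 16.7% of all genes. For all genes with at least 100 UMIs that share was 13.7%. The count of members highest in GFPhigh was 29 with TMM scaling, where the share of all genes was 34.1%, and 24 after each cell was thinned to 500 UMIs, where it was 39.1%.

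**Figure D1:**
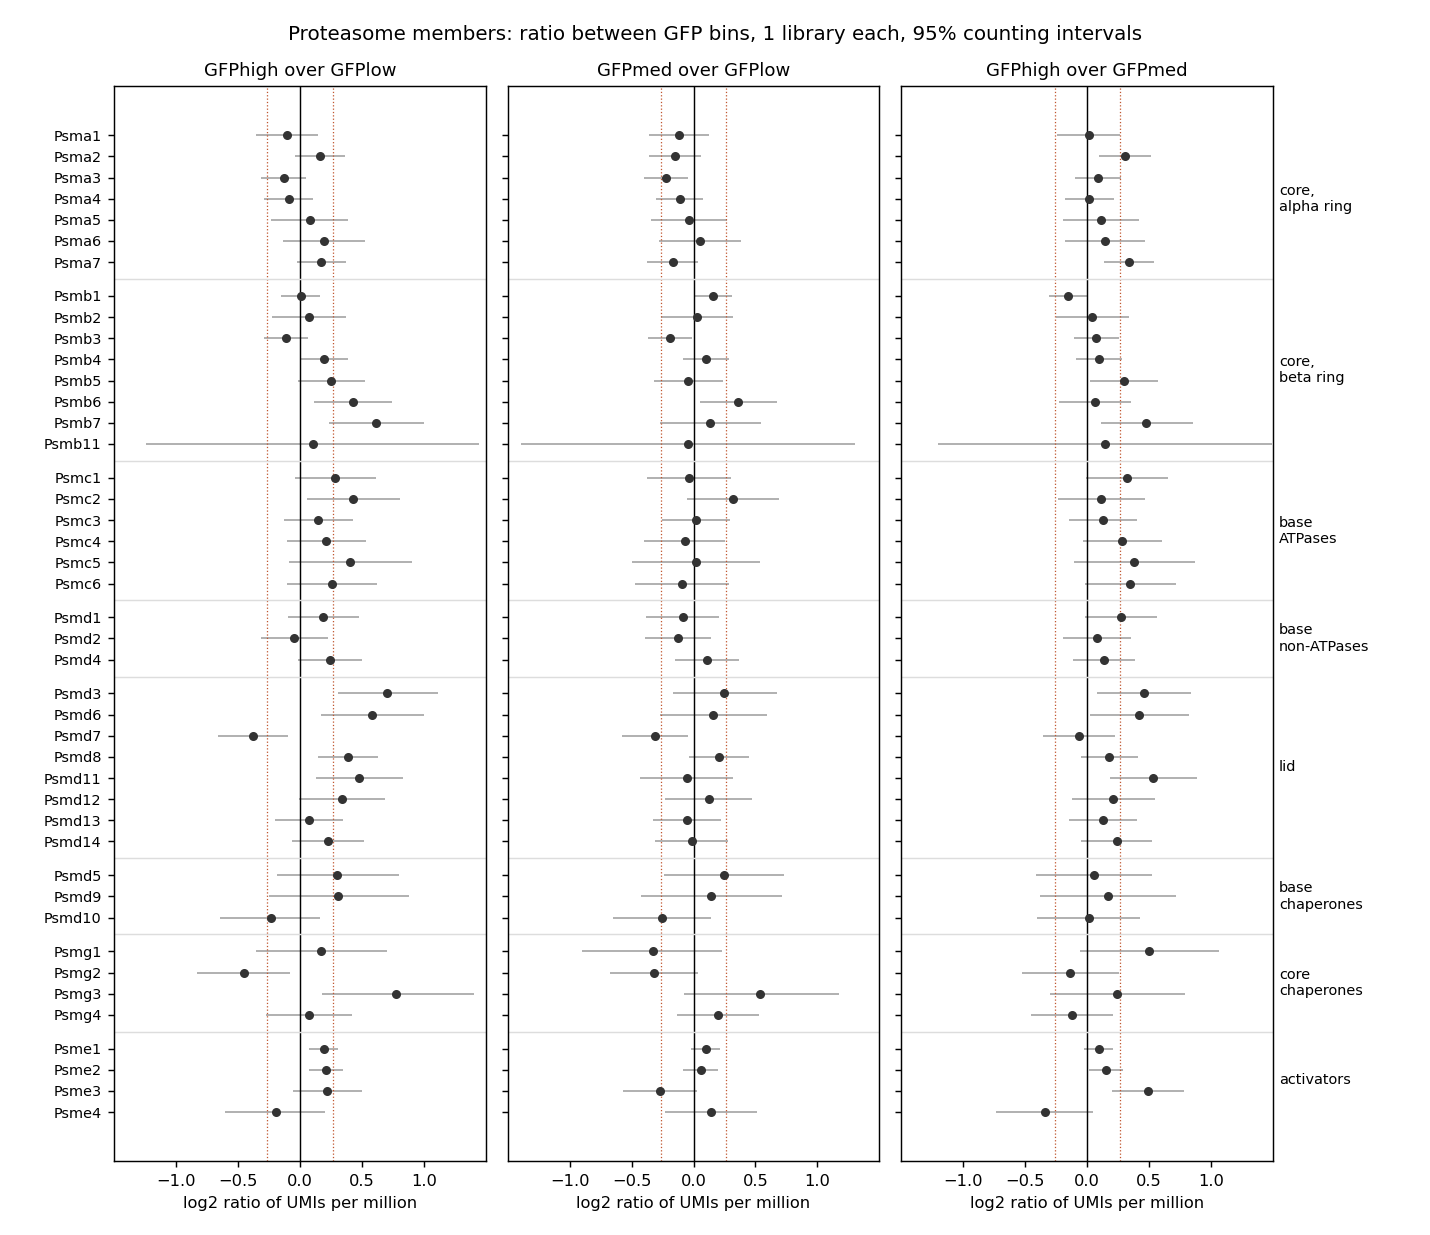
Log2 ratio of the levels in UPM for each of the 43 members in the 3 pairs of bins, 1 library per bin, with 95% intervals for counting error and dotted lines at 1.2-fold, ordered by role from the core to the activators. Most points of the left and right panels lie to the right of 0, with 34 and 38 of 43 members above a ratio of 1, and those of the middle panel are divided, with 21.

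The alpha ring, whose subunits form the gate of the core, did not separate GFPhigh from GFPlow. Its 7 genes summed to 997, 908 and 1011 UPM, and the log2 ratio between the outer bins was 0.02 [-0.06, 0.10], turning to -0.02 with TMM scaling. GFPmed was the low bin, at a log2 ratio of -0.14 [-0.22, -0.05] to GFPlow. Over 11 alternatives of the processing that ratio of GFPmed to GFPlow ranged from -0.17 to -0.06. Between the outer bins 4 of the 7 ratios were above 1, near the 54.9% of all genes. None reached 1.2-fold, against 29.3% of all genes higher and 21.6% lower. At the upper end stood Psma6, at 61.6, 63.7 and 70.5 UPM and a log2 ratio of 0.19 [-0.14, 0.53]. At the lower end stood Psma3, at 226.2, 193.9 and 206.6 UPM and a log2 ratio of -0.13 [-0.31, 0.05]. Both intervals hold 0, and alpha genes were not compared with each other.

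In the beta ring the cutting subunits had a larger ratio than the others. The 3 constitutive catalytic genes summed to 191.7 UPM [174.7, 209.9] in GFPlow, 210.96 UPM [193.4, 229.7] in GFPmed and 251.9 UPM [231.7, 273.5] in GFPhigh. Between the outer bins this was a log2 ratio of 0.39 [0.22, 0.57]. The other 5 beta genes summed to 773.9, 791.7 and 787.5 UPM, where that ratio was 0.03 [-0.07, 0.12]. Psmb7, the subunit that cuts after basic residues (chromosome 2, 38588036 to 38644087, minus strand, mm10), stood at 40.2, 44.2 and 61.7 UPM. GFPhigh stood apart from both other bins, at log2 ratios of 0.61 [0.23, 1.004] over GFPlow and 0.48 [0.11, 0.85] over GFPmed. Psmb6, which cuts after acidic residues (chromosome 11, 70525367 to 70527858, plus strand), stood at 62.8, 80.8 and 84.6 UPM. Here GFPlow was the low bin, with log2 ratios of 0.43 [0.12, 0.75] for GFPhigh and 0.36 [0.05, 0.68] for GFPmed over it and 0.07 [-0.23, 0.36] between them. Psmb5, which cuts after hydrophobic residues and is the main target of bortezomib, stood at 88.7, 85.98 and 105.7 UPM, and the interval of its log2 ratio between the outer bins, 0.25 [-0.02, 0.53], holds 0. The lowest ratio in this ring was that of Psmb3, a structural beta subunit, at 235.2, 206.2 and 217.1 UPM and a log2 ratio of -0.12 [-0.29, 0.06]. Psmb11 had 11 UMIs in each bin, too few to compare. The exons of Psmb7 overlap Nek6 on the opposite strand in GENCODE M21, and whether the counting used strand is not given in the sources used here.

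The promoters of Psmb5 and Psmb6 hold the letters TGACNNNGC, the core of the antioxidant response element that Nfe2l1, a transcription factor of proteasome genes, is known to bind. They are shown as the 250 bases before the RefSeq start in GRCm38.p6, with the match in capitals. Psmb7 has no window in the promoter set used and was not searched. TGACNNNGC was found for 13.9% of the members with a window and for 11.5% of all genes with a window. The window of Psmb5 is chr14:54617996-54618245 on the minus strand, and its match begins 47 bases before the start. The window of Psmb6 is chr11:70525107-70525356 on the plus strand, and its match begins 9 bases before the start.
Psmb5: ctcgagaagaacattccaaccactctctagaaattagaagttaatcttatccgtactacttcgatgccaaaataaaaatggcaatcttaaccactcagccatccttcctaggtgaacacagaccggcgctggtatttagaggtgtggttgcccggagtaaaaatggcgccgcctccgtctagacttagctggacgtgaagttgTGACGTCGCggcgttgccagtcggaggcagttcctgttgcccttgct
Psmb6: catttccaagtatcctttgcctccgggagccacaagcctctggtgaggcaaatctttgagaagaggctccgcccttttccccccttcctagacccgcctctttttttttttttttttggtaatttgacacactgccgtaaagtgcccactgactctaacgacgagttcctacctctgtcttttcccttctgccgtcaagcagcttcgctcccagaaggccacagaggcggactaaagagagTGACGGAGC

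The immunoproteasome genes, whose products take the places of the constitutive cutting subunits, were unlike each other. Psmb8, the partner of Psmb5, stood at 419.2, 453.4 and 489.4 UPM, and its log2 ratio between the outer bins was 0.22 [0.10, 0.35]. Psmb9, the partner of Psmb6, stood at 135.1, 142.5 and 125.97 UPM, with a ratio of -0.10 [-0.33, 0.13] on the same scale. Psmb10, the partner of Psmb7, stood at 170.8, 164.4 and 131.3 UPM. It was lowest in GFPhigh, at log2 ratios of -0.38 [-0.60, -0.16] to GFPlow and -0.32 [-0.54, -0.11] to GFPmed. Within a bin, the UMIs of the 3 constitutive genes came to 0.264 [0.238, 0.293] of those of the 3 immunoproteasome genes in GFPlow, 0.277 [0.252, 0.306] of them in GFPmed and 0.338 [0.306, 0.371] in GFPhigh. Such a ratio does not depend on how the library was scaled, and on the log2 scale GFPhigh lay 0.35 [0.15, 0.56] above GFPlow and 0.28 [0.08, 0.48] above GFPmed. In cells of at least 1000 UMIs GFPhigh lay 0.21 above GFPlow. The single pairs follow. Psmb7 over Psmb10 went from 0.236 in GFPlow and 0.269 in GFPmed to 0.470 in GFPhigh, a log2 difference of 0.996 [0.55, 1.44] between the outer bins. Psmb6 over Psmb9 went from 0.465 through 0.567 to 0.671, a log2 difference of 0.53 [0.13, 0.92]. Psmb5 over Psmb8 was 0.212, 0.190 and 0.216, with a log2 difference of 0.03 [-0.27, 0.33].

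**Figure D2:**
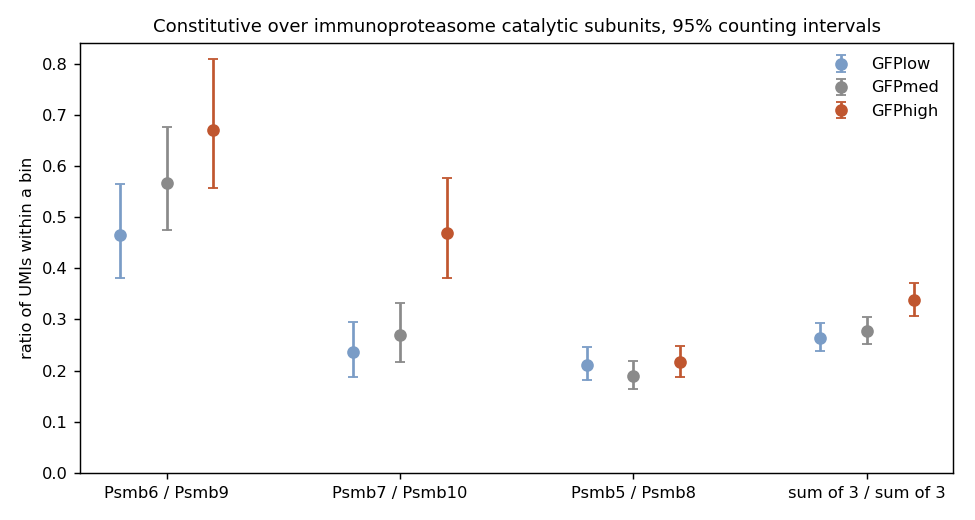
UMIs of each constitutive catalytic gene divided by those of its immunoproteasome partner within a bin, and the same for the sums of 3 genes, with exact 95% intervals for counting error. The GFPhigh point of Psmb7 over Psmb10 (0.470) lies above the GFPlow and GFPmed points, and the points of Psmb5 over Psmb8 overlap.

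Over all cells used, the regulatory particle differed more between GFPhigh and the other bins than the core, unlike in cells under 1000 UMIs. Its 17 genes summed to 1167 UPM [1125, 1211] in GFPlow, 1173 UPM [1131, 1216] in GFPmed and 1361 UPM [1313, 1410] in GFPhigh, which put GFPhigh at log2 ratios of 0.22 [0.15, 0.30] to GFPlow and 0.21 [0.14, 0.29] to GFPmed. The 15 core genes summed to 1962.7, 1910.2 and 2050.3 UPM, where these ratios were 0.06 [0.00, 0.12] and 0.10 [0.04, 0.16]. Above 1 between the outer bins were the ratios of 15 of 17 regulatory genes and of 11 of 15 core genes, against 54.9% of all genes. The core's UMIs came to 1.68 times those of the regulatory particle in GFPlow, 1.63 times in GFPmed and 1.51 times in GFPhigh. This quotient is free of library scaling, and on the log2 scale GFPhigh differed from GFPlow by -0.16 [-0.25, -0.06] and from GFPmed by -0.11 [-0.21, -0.02]. With each cell thinned to 500 UMIs these values were -0.0791 and -0.18. GFPmed differed from GFPlow by -0.05 [-0.14, 0.05]. The values of individual subunits overlapped between the particles, as the plot of single members shows.

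**Figure D3:**
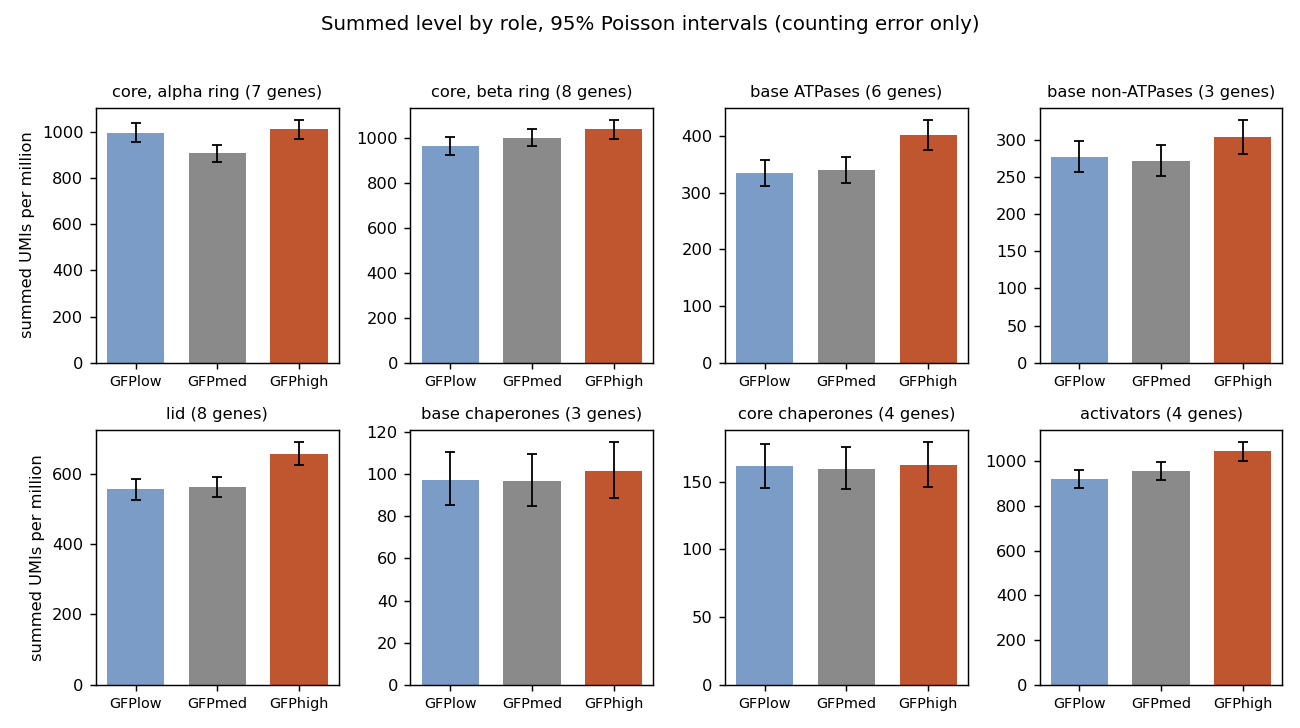
Summed level in UPM of the genes of each role, 1 bar for each bin (1 library), with bars from 0 and exact 95% Poisson intervals. The GFPhigh bar is the highest for the base ATPases (402) and the lid (656), while the chaperone bars of the 3 bins overlap.

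The ATPases of the base, which pull substrates into the core, were higher in GFPhigh than in GFPlow in 6 of 6 genes, against 54.9% of all genes. Their sum was 334.6 UPM [312, 358.4] in GFPlow, 339.5 UPM [317.1, 363.1] in GFPmed and 401.7 UPM [376.04, 428.6] in GFPhigh. The log2 ratio between the outer bins was 0.26 [0.13, 0.40], and 0.06 with each cell thinned to 500 UMIs. Psmc2 stood at 44.7, 55.7 and 60.3 UPM, the largest difference, with a log2 ratio of 0.43 [0.06, 0.81]. The smallest was that of Psmc3, at 87.9, 89.2 and 97.3 UPM, with a log2 ratio of 0.15 [-0.13, 0.43]. For the 5 genes other than Psmc2 the interval of their own ratio holds 0.

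The non-ATPase genes of the base encode the scaffolds Psmd1 and Psmd2 and the ubiquitin receptor Psmd4. Psmd4 stood at 98.9, 106.7 and 117.2 UPM, a log2 ratio of 0.24 [-0.01, 0.50] between the outer bins. Psmd2 stood at 97.3, 89.2 and 94.3 UPM, a log2 ratio of -0.05 [-0.32, 0.23]. For the 3 genes together the ratio was 0.13 [-0.02, 0.29], whose interval holds 0.

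The lid held both the largest differences of the regulatory particle and its clearest exception. Its 8 genes summed to 555.4 UPM [526.2, 585.9] in GFPlow, 561.2 UPM [532.3, 591.3] in GFPmed and 655.8 UPM [622.9, 690.02] in GFPhigh, and the log2 ratio between the outer bins was 0.24 [0.13, 0.35]. Psmd3, a scaffold subunit of the lid (chromosome 11, 98682554 to 98695979, plus strand), stood at 36.1, 42.99 and 59.02 UPM. GFPhigh lay at log2 ratios of 0.71 [0.31, 1.11] to GFPlow and 0.46 [0.08, 0.84] to GFPmed. Psmd3 was picked as the lid gene with the highest ratio between the outer bins, and its intervals do not allow for that choice. Psmd7 (chromosome 8, 107580381 to 107588464, minus strand), the partner without enzyme activity of the deubiquitinase Psmd14, had the opposite order. It stood at 104.7, 84.4 and 80.6 UPM, highest in GFPlow. Its log2 ratios to GFPlow were -0.38 [-0.66, -0.10] in GFPhigh and -0.31 [-0.58, -0.04] in GFPmed. Psmd11, a lid subunit that had the highest log2 ratio of GFPhigh over GFPmed, stood at 49.7, 47.8 and 69.2 UPM. Its log2 ratios were 0.53 [0.18, 0.89] over GFPmed and 0.48 [0.13, 0.83] over GFPlow. Psmd11 was picked for the ratio over GFPmed, and its intervals do not allow for that choice. Named after their values were seen, Psmd6 (0.58 [0.17, 0.999]) and Psmd8 (0.38 [0.14, 0.63]) were further lid genes whose log2 ratio between the outer bins has an interval above 0.

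The promoters of Psmd6 and Psmd11 hold CCGGAAG, the core of the sites that ETS family factors are known to bind. Both are shown over the same 250 bases before the RefSeq start in GRCm38.p6, with the match in capitals. They were picked for the highest ratios between the outer bins among regulatory genes with a window and at least 100 UMIs. Psmd3, with a higher ratio, has no window in the promoter set used and was not searched. The window of Psmd6 is chr14:14120946-14121195 on the minus strand, with a match that begins 45 bases before the start. The window of Psmd11 is chr11:80428365-80428614 on the plus strand, where the match lies on the other strand, reads CTTCCGG as printed and begins 11 bases before the start.
Psmd6: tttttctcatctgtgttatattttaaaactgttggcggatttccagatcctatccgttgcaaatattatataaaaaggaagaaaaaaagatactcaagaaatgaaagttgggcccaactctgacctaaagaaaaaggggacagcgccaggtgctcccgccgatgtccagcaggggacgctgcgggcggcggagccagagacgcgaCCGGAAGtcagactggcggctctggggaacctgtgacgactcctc
Psmd11: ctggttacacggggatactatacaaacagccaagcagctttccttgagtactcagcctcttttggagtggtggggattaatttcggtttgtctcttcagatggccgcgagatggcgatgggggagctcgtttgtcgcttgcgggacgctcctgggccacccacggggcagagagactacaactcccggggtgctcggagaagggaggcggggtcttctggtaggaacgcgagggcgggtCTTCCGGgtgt

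These letters were searched on both strands in 32851 windows of 250 bases from 27025 genes, a gene counting once if any of its windows held them, and 36 of the 43 measured members have at least 1 window there. CCGGAAG was found for 12 of the 36 members (33.3%) and for 7.83% of all genes. All genes here are those with a window, measured in these cells or not, and not the 10113 genes tested. A background of measured genes only was not searched. TGACNNNGC was found for 5 (13.9%), which are Psmb5, Psmb6, Psmc6, Psmd9 and Psmd12, and for 11.5% of all genes. CCAAT, the core letters of the NF-Y site, was found for 13 (36.1%) and for 37.5% of all genes. Of the 11 members with a window that were at least 1.2-fold higher in GFPhigh than in GFPlow, 5 held CCGGAAG, 3 TGACNNNGC and 2 CCAAT, and of the other 25 members these were 7, 2 and 11. Matches of different motifs were counted separately, also where they overlap. A match describes the sequence only and shows neither binding nor use.

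The assembly chaperones, which bring subunits together and are not part of the finished particle, were level between bins. The chaperones of the base, Psmd5, Psmd9 and Psmd10, summed to 97.3, 96.7 and 101.3 UPM, and those of the core, Psmg1 to Psmg4, to 161.3, 159.6 and 162.1 UPM. Over all 7 the log2 ratio between the outer bins was 0.03 [-0.14, 0.19]. Single members went opposite ways. Psmg3 stood at 15.6, 22.7 and 26.9 UPM, and its log2 ratio between the outer bins was 0.78 [0.18, 1.41], the highest of all members with at least 100 UMIs. Psmg2, which pairs with Psmg1 to start the alpha ring, stood at 61.6, 49.4 and 44.9 UPM, and its ratio was -0.45 [-0.83, -0.08], the lowest. Psmd9 stood at 20.9, 23.1 and 25.99 UPM, with a log2 ratio of 0.31 [-0.25, 0.88]. Psmd10, known as gankyrin, stood at 48.9 UPM in GFPlow and 41.4 UPM in GFPhigh, with a log2 ratio of -0.24 [-0.64, 0.16]. Psmg3 shares exon positions with Gm26938 on the same strand in GENCODE M21, so its reads could belong to either.

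The activators open the core without ubiquitin or ATP, and Psme1 and Psme2, which form a cap together, are known to be induced by interferon. As a group they stood at 919.2 UPM [881.5, 958.1] in GFPlow, 954.9 UPM [917.1, 993.9] in GFPmed and 1043 UPM [1001, 1086] in GFPhigh. The log2 ratio between the outer bins was 0.18 [0.10, 0.27]. Psme1 stood at 458.2, 490 and 522.8 UPM, with a log2 ratio of 0.19 [0.07, 0.31]. Psme2 stood at 328.01, 341.5 and 379.2 UPM, with a log2 ratio of 0.21 [0.07, 0.35]. The partner genes thus had closely similar ratios, and without them the other 41 members together had a log2 ratio of 0.12 [0.07, 0.16]. Psme3, the nuclear activator, was low in GFPmed, at 84.98, 70.5 and 99.1 UPM, and GFPhigh lay at log2 ratios of 0.22 [-0.06, 0.50] to GFPlow and 0.49 [0.20, 0.78] to GFPmed. Psme4, a large activator linked to histone turnover, stood at 48.03, 52.9 and 41.8 UPM, where these ratios were -0.20 [-0.60, 0.20] and -0.34 [-0.73, 0.05].

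From GFPlow to GFPmed the members were divided. Of 43 members 21 had a ratio above 1, against 46.8% of all genes, and the medians were -0.01 for the members and -0.03 for all genes. At least 1.2-fold higher were 3 members (6.98%, against 22.4% of all genes) and at least 1.2-fold lower 4 (9.30%, against 25.8%). Among all genes with at least 100 UMIs, which 42 members reach, these shares were 16% and 23.7%. Psmg3 (0.53 [-0.08, 1.17]) and Psmb6 (0.36 [0.05, 0.68]) had the highest ratios, and Psmg1 (-0.33 [-0.90, 0.23]) and Psmg2 (-0.32 [-0.67, 0.03]) the lowest. The step from GFPmed to GFPhigh held 38 members with a ratio above 1 (88.4%, against 58.5% of all genes), with medians of 0.15 and 0.08. At least 1.2-fold higher were 14 (32.6%, against 30.4%), and at least 1.2-fold lower was Psme4 alone (2.33%, against 18.9%). For all genes with at least 100 UMIs these shares were 27.4% and 14.1%. Psmd11 and Psmg1, the latter at 25.04, 19.9 and 28.2 UPM (log2 ratio 0.50 [-0.05, 1.07]), led this step. Psmb1, a structural beta subunit, was the lowest after Psme4, at 305.3 UPM in GFPmed and 273.96 UPM in GFPhigh, with a log2 ratio of -0.16 [-0.31, -0.00]. The split of this step depends on the scaling. With TMM the members above 1 were 31 of 43, against 49.8% of all genes. With ribosomal protein genes left out of the total they were 33 here, against 51.3%, and 29 of 43 from GFPlow to GFPmed, against 55.5%. Ribosomal protein genes stood at 239232, 277315 and 244958 UPM, and the part of this in the level of the members was not tested beyond leaving them out.

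Genes that work with the proteasome but lie outside the member symbols were compared in the same way, and the highest and lowest of each list are named among genes with at least 100 UMIs. Of all genes tested 54.9% had a ratio above 1 between the outer bins, and the counts of the lists here lie near that share. Of 11 measured proteasome-associated genes, 7 had a ratio above 1 between the outer bins, and the log2 ratio of their sum was 0.09 [-0.00, 0.18]. Adrm1, a ubiquitin receptor of the base, had the highest ratio (25.5, 35.03 and 35.7 UPM, log2 0.48 [-0.01, 0.99]), and the deubiquitinase gene Usp14 the lowest (58.3, 54.1 and 48.01 UPM, log2 -0.28 [-0.65, 0.09]). Of 16 genes of ubiquitin and substrate delivery, 8 had a ratio above 1, with Ubb, a polyubiquitin gene, highest among those with at least 100 UMIs at 94.4, 109.1 and 142.3 UPM (log2 0.59 [0.34, 0.84]). Faf1, a cofactor of the unfoldase Vcp, was lowest at 36.9, 34.2 and 30.8 UPM (log2 -0.26 [-0.73, 0.21]). Of 10 genes of known proteasome gene regulators, 6 had a ratio above 1. Foxo4 was highest (12.7, 13.5 and 15.4 UPM, log2 0.27 [-0.46, 1.02]) and Mafg, a small Maf partner of Nfe2l1, lowest (24.6, 13.9 and 11.01 UPM, log2 -1.15 [-1.90, -0.47]). Nfe2l1 itself, named for the motif above, stood at 27.9, 29.1 and 27.3 UPM.

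Within each bin, cells were gated by genes that are not members, and the members were then read inside and outside the gate. A cell with at least 2 UMIs of Nr4a1, Nr4a3, Egr1, Egr2, Egr3, Tnfrsf9, Cd83, Myc and Irf4 counted as TCR-stimulated, which held for 6.74%, 13.2% and 22.2% of the cells of GFPlow, GFPmed and GFPhigh. With each cell thinned to 500 UMIs these shares were 2.40%, 3.84% and 10.99%. In GFPhigh the members summed to 5275 UPM inside the gate [5097, 5458] and 4512 outside [4410, 4616], a log2 ratio of 0.23 [0.17, 0.28]. The log2 ratio was 0.07 [-0.04, 0.17] in GFPlow and 0.04 [-0.04, 0.11] in GFPmed, where the intervals hold 0, and the difference between bins was not tested. In GFPhigh 34 of 43 members were higher inside the gate (79.1%), with a median log2 ratio of 0.22, against 54.1% and 0.05 of all genes. In GFPlow these were 20 members (46.5%) with a median of -0.04, against 55.3% and 0.08 of all genes. In GFPmed they were 25 (58.1%) with a median of 0.05, against 55.8% and 0.07. Gated cells were deeper, at a median of 1401 against 1077 UMIs in GFPhigh. Among GFPhigh cells of at least 1000 but under 2000 UMIs, where the medians were 1416 and 1324, the log2 ratio was 0.24 [0.15, 0.32].

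By role, the TCR-stimulated GFPhigh cells differed most in the activators, at 1238 UPM inside and 970.06 UPM outside (log2 0.35 [0.23, 0.48]). The core genes stood at 2265.7 and 1971.2 UPM (log2 0.20 [0.11, 0.29]) and the regulatory genes at 1485.5 and 1315.5 UPM (log2 0.18 [0.06, 0.29]). The immunoproteasome genes stood no higher inside, at 717.99 and 758.6 UPM (log2 -0.08 [-0.24, 0.08]). Between the outer bins, all members had a log2 ratio of 0.23 [0.12, 0.34] inside the gate and 0.07 [0.03, 0.12] outside. Outside the gate the regulatory genes had a log2 ratio of 0.18 [0.10, 0.27], while that of the core genes was 0.01 [-0.06, 0.07]. Inside the gate the particles were alike, at 0.21 [-0.00, 0.42] for the regulatory and 0.19 [0.02, 0.36] for the core genes.

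In GFPhigh the other gates separated the members less, and the difference between gates was not tested. In the effector gate (at least 2 UMIs of S100a4, S100a6, Ccr2, Itgb1, Lgals1, Klrg1 and Il1rl1) the log2 ratio inside over outside was 0.13 [0.07, 0.20] in GFPlow, 0.14 [0.08, 0.21] in GFPmed and 0.09 [0.01, 0.16] in GFPhigh. Medians of the members there, 0.09, 0.19 and 0.10, lay near those of all genes, 0.17, 0.14 and 0.12. Among cells of at least 1000 but under 2000 UMIs the summed ratio was 0.16 [0.08, 0.23] in GFPlow and 0.13 [0.02, 0.23] in GFPhigh. In GFPmed it was 0.07 [-0.03, 0.18], whose interval holds 0. In cells with at least 1 UMI of mitotic genes the members were at 0.02 [-0.06, 0.09], 0.08 [0.01, 0.14] and 0.06 [-0.01, 0.13]. Among cells of at least 1000 but under 2000 UMIs these were 0.03 [-0.07, 0.12], 0.08 [-0.03, 0.19] and 0.02 [-0.09, 0.13], and each interval holds 0. Over all depths the medians of the members in the mitotic gate were 0.14, 0.03 and 0.08, against 0.06, 0.08 and 0.04 of all genes.

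**Figure D4:**
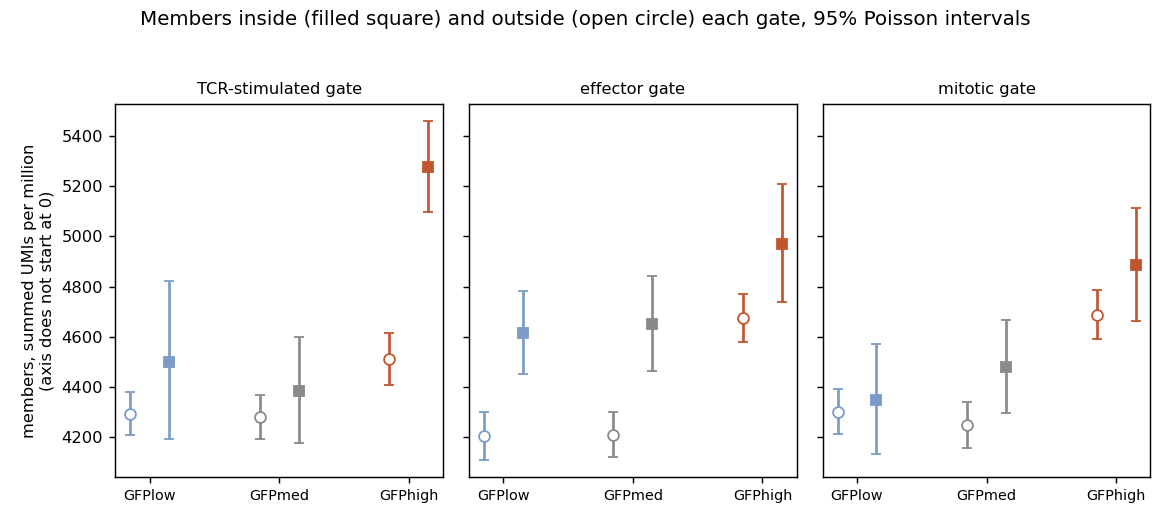
Summed level in UPM of all members in cells inside (filled squares) and outside (open circles) of 3 gates in each bin, with exact 95% Poisson intervals on an axis that does not start at 0. The TCR-stimulated GFPhigh cells lie highest at 5275, above the GFPhigh cells outside that gate at 4512.

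Depth differed between the bins, and the members were also compared among cells of similar depth. In cells of at least 500 but under 1000 UMIs the members stood at 4267, 4412 and 4491 UPM, and the log2 ratio between the outer bins was 0.07 [-0.01, 0.15], whose interval holds 0. In cells of at least 1000 but under 2000 UMIs they stood at 4325, 4145 and 4646 UPM, with a log2 ratio of 0.10 [0.05, 0.15]. In cells of at least 2000 UMIs, which made up 3.91%, 26.4% and 11.2% of the cells of the bins, they stood at 4299, 4442 and 5105 UPM, with a log2 ratio of 0.25 [0.14, 0.36]. GFPhigh had the highest value in each class, but in the shallowest class its log2 ratio to GFPmed was 0.03 [-0.08, 0.13], so that there it was within counting error of both other bins. Its distance from GFPlow was widest in the deepest cells. The regulatory genes of the deepest cells stood at 1184.6, 1228.1 and 1509.6 UPM and the core genes at 1949.4, 1975.5 and 2212.9 UPM. In the middle class the regulatory genes stood at 1132.9, 1106.5 and 1322 UPM and the core genes at 1998.5, 1856 and 1998.4 UPM. In the shallowest class the regulatory genes stood at 1245.4, 1273.1 and 1299.8 UPM. The core genes of those cells stood at 1879.6, 1900.8 and 2004.5 UPM, so the regulatory genes did not differ more there. From GFPlow to GFPmed the mean depth and the share of TCR-stimulated cells were higher. The log2 ratio of the summed members over that step was -0.00 [-0.04, 0.03], and 0.0695 with ribosomal protein genes left out of the total. The part of depth and of TCR-stimulated cells in the level of GFPhigh was not tested beyond these values.

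**Figure D5:**
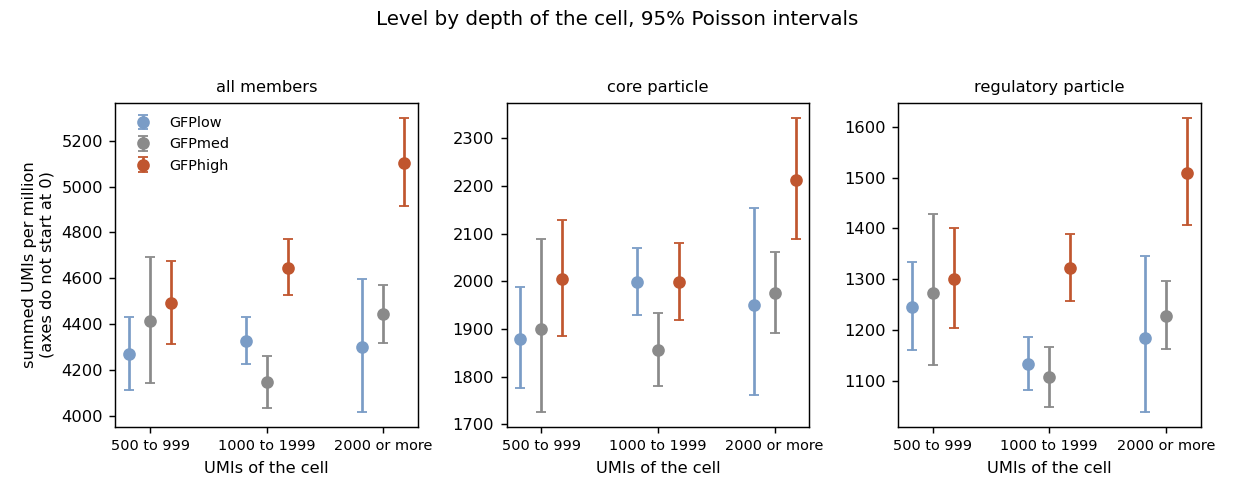
Summed level in UPM of all members, the core and the regulatory particle in cells of 3 classes of depth, with exact 95% Poisson intervals on axes that do not start at 0. In cells of at least 2000 UMIs all members reach 5105 in GFPhigh against 4299 in GFPlow.

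Transcripts of other cell types differed between the libraries. Erythroid markers summed to 1388, 2975 and 1043 UPM, B cell markers to 223.3, 307.7 and 291.1 UPM, and myeloid markers to 72.3, 215.7 and 77.5 UPM. Markers of CD8 T or NK cells summed to 41.9, 104.3 and 43.2 UPM and plasma cell markers to 22.6, 6.77 and 230.4 UPM, and platelet markers reached at most 1.59 UPM. Of all UMIs of the plasma cell marker Jchain, 90.6% lay in 1 cell of GFPhigh. At 0 in all bins were the myeloid markers S100a8 and S100a9 and the platelet marker Ppbp. Lyz2, Csf1r and Gzma were at 0 in GFPhigh, Ncr1 and Gp9 in GFPhigh and GFPlow, Pf4 in GFPhigh and GFPmed, and Sdc1 in GFPmed, while each B cell and erythroid marker in the table was found in every bin. At least 2 UMIs of these markers were held by 3.44%, 8.33% and 5.24% of the cells of GFPlow, GFPmed and GFPhigh. With them left out, 33 of 43 members had a ratio above 1 between the outer bins, against 54.3% of all genes, and the median log2 ratio was 0.20 against 0.04. The sum of all members then had a log2 ratio of 0.13, as with all cells.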

How the data were processed

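The table deposited by the authors holds unscaled UMI counts of each gene in single cells of 3 inDrops libraries. Per the labels' protocols the libraries were read on a NextSeq500. Per the submitters' processing notes TopHat2 and SAMtools were used with the genome build mm10. Their versions, the gene annotation, the strand setting and the rule for collapsing UMIs are not given in the sources used here. Each of the 6106 columns is the cell of 1 label, so that 0 stayed out.

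The 5435 cells with at least 500 UMIs were used, and genes with at least 20 UMIs in them were tested. Counts were summed per bin, scaled to 1000000 UMIs of all genes, and compared as log2 ratios after adding 0.5 UMI. Intervals of a level are exact Poisson and those of a ratio exact conditional binomial, at 95%. PCR duplicates are collapsed only as far as UMIs allow, and intervals cover counting error only. A gene was counted as higher or lower past 1.2-fold. Doublets were not called, and leaving out the 2% of cells with most UMIs served as an alternative. The ratio and interval functions were tested on simulated Poisson counts, which follow the model that the intervals assume. That simulation held no variation between cells, mice or libraries. Gates on 2 further gene lists are not reported here.

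Named genes were the catalytic subunits, the immunoproteasome genes, the activators, non-proteasome members, the highest and lowest member of each role or other list by GFPhigh over GFPlow, and the 2 highest and 2 lowest members for the other pairs, among genes with at least 100 UMIs. The members and lists were chosen with earlier results of these data known. Gene positions and exon overlaps come from GENCODE M21 (mm10) and promoters from RefSeq (GRCm38.p6). With exons of other protein-coding genes 7 of the 43 members overlap, 2 of them (Psmd1 and Psmg3) on the same strand. Python 3.11.15, numpy 2.4.6, scipy 1.17.1 and pandas 2.3.3 were used, and edgeR 4.0.16 in R 4.3.3 gave the TMM factors of 0.998 for GFPlow, 0.975 for GFPmed and 1.03 for GFPhigh.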

Additional observations from a re-analysis of the deposited data

Results flagged for a closer look

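Cells with fewer than 500 UMIs, which the comparisons leave out, also held proteasome transcripts above the limit that a count of 0 allows. The members summed to 4432 UPM [4033, 4860] in such cells of GFPlow (10.5% of the cells of that bin), 3708 UPM [3212, 4259] in those of GFPmed (8.62%) and 4469 UPM [4089, 4875] in those of GFPhigh (13.5%). The limit of 3 counts stood at 29.4, 55.6 and 26.3 UPM. The intervals of GFPlow and GFPhigh overlap, so a difference between the outer bins was not detectable among these cells.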

How the results depend on the processing

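Alternatives were another minimum of UMIs per cell or gene, cells of other lineages, mitotic or very deep cells left out, TMM, ribosomal protein genes left out of the total, equal weight per cell, and thinning to 500 UMIs. Over 11 alternatives the log2 ratio of all members for GFPhigh over GFPlow ranged from 0.0875 to 0.15, that of core over regulatory particle from -0.23 to -0.08, and that of constitutive over immunoproteasome catalytic genes from 0.21 to 0.40. With TMM the summed ratio of all members was 0.0875 between GFPhigh and GFPlow and 0.0580 between GFPhigh and GFPmed, the medians were 0.15 and 0.0684, and 5 members (GFPmed over GFPlow) and 8 (GFPhigh over GFPmed) were at least 1.2-fold higher. Without ribosomal protein genes the log2 ratio of the sum was 0.0695 (GFPmed over GFPlow) and 0.0725 (GFPhigh over GFPmed), the medians were 0.0594 and 0.0829, 7 members were at least 1.2-fold higher and 0 lower in GFPmed than in GFPlow, and 9 were higher in GFPhigh than in GFPmed. With equal weight per cell the median was 0.14 for GFPhigh over GFPlow, with 4 members at least 1.2-fold lower. With thinning that median was 0.0688, again with 4 lower. Thinning also gave 0.10 for core over regulatory particle in GFPmed over GFPlow, a change of sign that lies outside the counting interval of the reported value, 8 members at least 1.2-fold higher for that pair, and, for GFPhigh over GFPmed, a sum of 0.0792 and 3 members lower. Without the deepest 2% of cells 1 member was at least 1.2-fold higher in GFPmed than in GFPlow. For GFPhigh over GFPmed, 0 members were lower in cells of at least 1000 UMIs and 2 without mitotic cells. The cause was not tested in these cases. Counts of ratios above 1 and of the highest bin were added after the data were seen. The counts limit single members, since the median member has 548 UMIs over the 3 bins. No replicate could be left out with 1 library per bin. No paired analysis was possible because the bins share 1 replicate number at most.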
